A study of Rattus norvegicus with 15 samples.

Results

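The 7 genes of the muscle small heat shock proteins, Hspb1, Hspb2, Hspb3, Hspb6, Hspb7, Hspb8 and Cryab, were followed through the culture of H9c2 cells with and without retinoic acid (RA). They were chosen by symbol from a written list, and 7 of 7 were present among the 11574 genes of the count table. H9c2 is a myoblast line from rat heart that forms myotubes when serum is lowered. RNA-seq was done on 15 libraries, 3 replicates, given as biological by the study, in each of 5 groups: cells at day 0 (T0), cells after 7 and 14 days of culture without RA (T7-RA and T14-RA), and cells after the same times with 1 µM all-trans-RA added every day (T7+RA and T14+RA). The design separates change with culture time from change with RA. All cells were labelled as wild type and came from a single line, and the RA was dissolved in DMSO. Whether the -RA cultures received DMSO is not given in the sources used here. Serum was lowered when differentiation began, so that culture time and low serum cannot be told apart in any comparison with T0.

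Small heat shock proteins are chaperones built around an alpha-crystallin domain. They form oligomers, bind unfolding proteins without using ATP, and hold them until other chaperones refold them or they are degraded. In muscle they sit on actin filaments, desmin and the Z-disc, where contraction strains proteins, and several of them are causes of inherited myopathy or neuropathy when mutated. Hspb1 (HSP27) and Cryab (alpha-B-crystallin) are the broadly expressed members, while Hspb2, Hspb3, Hspb6 and Hspb7 are best known from heart and skeletal muscle, and Hspb8 works with the co-chaperone Bag3 in autophagy of damaged Z-disc proteins.

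The libraries held 508397 to 1030820 counts each, and the 7 genes together took between 0.0759% and 0.135% of them. At this depth Hspb1 was read well (220 to 490 counts a library), whereas Hspb3 had 65 counts and Hspb8 had 124 counts over the 15 libraries in total. Levels are given as CPM, the counts of a gene scaled to the size of its library with TMM factors. The summed CPM of 6 myotube markers was 141 to 168 at T0, 2664 to 3229 at T7-RA, 10772 to 11305 at T14-RA, 1347 to 1664 at T7+RA and 4691 to 5468 at T14+RA. Most of it at T14-RA was Myh3, Acta1 and Tnnt3 (means 5056, 3258 and 1932 CPM). Mean Ckm was 63.3 CPM at T14-RA and 70.8 at T14+RA, and mean Myog 638 and 569. Of 4 myoblast markers, Myod1 and Des were in the table analysed here, with a summed CPM of 71.3 to 158 at T0, 90.7 to 105 at T7-RA, 103.3 to 133 at T14-RA, 145 to 173 at T7+RA and 90.6 to 127 at T14+RA. The T7+RA sums thus lay above those of T7-RA, and their part in the RA changes of the members was not tested. The 2 genes moved differently. Mean Myod1 was 115 CPM at T0, 87.9 at T7-RA, 80.2 at T14-RA, 148.5 at T7+RA and 65.0 at T14+RA. Mean Des was 5.72, 10.4, 40.3, 11.9 and 39.5 CPM in the same order. Of 7 cardiomyocyte markers, 1 was in the table, Gata4, at 6.90 to 21.6 CPM over the 15 libraries, and the other 6 were not in the table analysed here. In bulk RNA of such cultures, fewer cells of a type and less RNA per cell cannot be told apart. Summed smooth muscle markers (4 of 4) were 15231 to 16810 CPM at T0 and 3334 to 5303 CPM in the other groups. Most of it was Acta2, at a mean of 12684 CPM at T0. Myh11 did not share this fall, at means of 10.0 CPM at T0, 7.81 at T7-RA, 13.2 at T14-RA, 7.72 at T7+RA and 9.95 at T14+RA. The part of these markers in any difference from T0 was not tested. The 3 fibroblast markers in the table, of 6, summed to 24632 to 37564 CPM at T0 and 18441 to 25738 CPM later, nearly all of it Col1a1; Dcn among them was at a mean of 0 CPM at T0, 50.5 at T14-RA and 119.8 at T14+RA, and Thy1 went the other way with RA, at 289.7 CPM at T0, 270.4 at T14-RA and 179.6 at T14+RA (RA term -0.49, edgeR adjusted p = 5.3e-05). Their part in the RA changes of the members was not tested. One of 4 endothelial markers was in the table, at 0 to 6.29 CPM, and none of the 4 leukocyte markers was.

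The bases upstream of the start of 3 members are shown, because Hspb7 had the largest change with RA of the family, Hspb6 was also lower with RA, and Hspb3 went from no counts at T0 to 10 to 15 counts a library at T14-RA. They come from RefSeq, build GRCr8, which is not the build of the counts (Rnor_6.0). Of the 7 members, 5 matched an entry; Hspb2 and Cryab did not. Each sequence is the 250 bases before the start, read 5′ to 3′ on the strand of the gene, and capitals mark matches to the motifs listed after them. Hspb7 lies at chr5:159010509-159010758 on the plus strand, Hspb6 at chr1:94934122-94934371 on the plus strand, and Hspb3 at chr2:47029166-47029415 on the minus strand.
Hspb7: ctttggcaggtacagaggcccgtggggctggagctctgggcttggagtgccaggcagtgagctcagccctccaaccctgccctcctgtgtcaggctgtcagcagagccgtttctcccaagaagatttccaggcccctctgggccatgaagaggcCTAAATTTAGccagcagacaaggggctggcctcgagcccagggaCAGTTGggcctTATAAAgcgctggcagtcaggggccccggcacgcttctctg
Hspb6: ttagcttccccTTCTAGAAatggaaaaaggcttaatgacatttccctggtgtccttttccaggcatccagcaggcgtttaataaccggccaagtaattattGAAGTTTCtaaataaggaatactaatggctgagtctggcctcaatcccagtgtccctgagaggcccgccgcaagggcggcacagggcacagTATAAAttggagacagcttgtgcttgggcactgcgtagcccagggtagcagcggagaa
Hspb3: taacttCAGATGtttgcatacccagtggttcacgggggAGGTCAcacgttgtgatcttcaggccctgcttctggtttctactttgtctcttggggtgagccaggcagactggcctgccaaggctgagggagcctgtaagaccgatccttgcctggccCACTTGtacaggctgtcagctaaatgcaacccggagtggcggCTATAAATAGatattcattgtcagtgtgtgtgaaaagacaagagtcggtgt

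The motifs searched on both strands were the E-box CANNTG, which myogenic factors such as MyoD bind; the paired heat shock units GAANNTTC and TTCNNGAA; AGGTCA, the half-site of retinoid and related nuclear receptors; TATAAA; and the MEF2 site and CArG box by name. Hspb7 held a MEF2 site 96 to 87 bases before the start, an E-box at 52 to 47 and TATAAA at 41 to 36. In Hspb6 there was TTCNNGAA at 239 to 232, GAANNTTC at 149 to 142 and TATAAA at 58 to 53. Hspb3 carried E-boxes at 244 to 239 and at 93 to 88, an AGGTCA at 212 to 207, and TATAAA at 50 to 45 that lies inside a MEF2 site at 51 to 42. The promoter of Hspb1 held 2 matches to GAANNTTC and 2 E-boxes, and that of Hspb8 held 1 of each. Among 33469 promoters of the same length, 65.5% held an E-box, 7.23% GAANNTTC, 7.48% TTCNNGAA, 12.9% TATAAA, 2.96% a MEF2 site and 1.5% a CArG box, and AGGTCA was in 4707 of them. No AGGTCA was found in the Hspb7 or Hspb6 window and no CArG box in any of the 5, which says only that these letters are not in these windows.

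Hspb1 was the most abundant member and Cryab the next in all 5 groups, as levels per kilobase of the gene size listed with the counts (CPM per kb). Hspb1 was at 811 ± 151 CPM per kb at T0 (SD, n = 3) and Cryab at 261 ± 51.9. The other 5 members changed places. Hspb7 took place 5 at T0, T7-RA and T14-RA, overlapping Hspb6 at T14-RA, and was last in both RA groups, at 1.31 ± 1.08 CPM per kb at T7+RA, where it overlapped Hspb3, and 3.13 ± 1.05 at T14+RA. Hspb2, an activator of the myotonic dystrophy kinase Dmpk, and Hspb6 came next after Cryab; their ranges over libraries overlapped at T0 and T7-RA, and Hspb2 was above Hspb6 in the other 3 groups. Hspb3 and Hspb8 overlapped in 4 of 5 groups, and at T14-RA Hspb3 (26.2 ± 3.15 CPM per kb) was above Hspb8 (11.7 ± 2.71).

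As a share of the summed CPM per kb of the family, Hspb1 was 67.0% ± 2.91 at T0 and 51.7% ± 1.62 at T14-RA, with no overlap, and 60.7% ± 2.93 at T14+RA. Cryab stayed between means of 19.5% and 23.7%. Hspb7 made up 5.39% ± 0.58 of the family at T14-RA and 0.356% ± 0.137 at T14+RA. The share of Hspb2 was 3.87% ± 0.89 at T0 and 10.1% ± 1.52 at T14-RA, close to the 10.5% ± 0.41 of T14+RA. The whole family summed to 1195 ± 176 CPM at T0, 918 ± 51.3 at T7-RA, 1151 ± 56.6 at T14-RA, 783 ± 28.6 at T7+RA and 858 ± 110 at T14+RA.

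**Figure D1:**
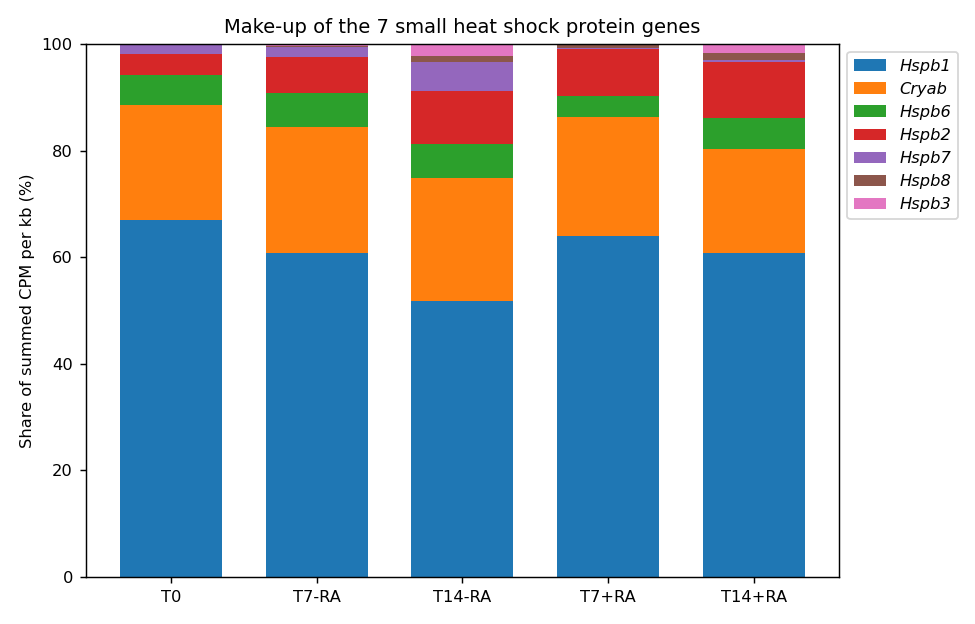
Mean share of each of the 7 genes in the summed CPM per kb of the family (vertical axis, %), in the 5 groups of 3 libraries. Hspb1 takes 67.0% at T0 and 51.7% at T14-RA, and the band of Hspb7, 5.39% at T14-RA, is 0.356% at T14+RA.

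Counts were tested with edgeR's quasi-likelihood test over all 11574 genes, in the additive model of the study (T7, T14 and RA terms) and as contrasts between groups. A gene was called at a Benjamini-Hochberg adjusted p under 0.001. In the T14 term, 4 members rose (Hspb2, Hspb3, Hspb7 and Hspb8) and 1 fell (Hspb1), 5 of 7 in all, where 17.3% of all genes were called (8.47% higher, 8.85% lower). The median log2 fold change of the 7 was 1.15 in this term and that of all genes 0.05. In the T7 term 1 of 7, Hspb1, was called, beside 8.73% of all genes. In the RA term 3 of 7 fell, Hspb6, Hspb7 and Cryab, where 6.39% of all genes were called and 3.07% were lower. The medians in that term were -0.42 for the 7 and -0.01 for all genes. DESeq2 and limma-voom each called 2 members in the T14 term and 1 in the RA term. Leaving out 1 library gave 2 to 5 members in the T14 term (2 without T0 replicate 3, and 3 without T0 replicate 2 or any T14-RA replicate) and 1 to 3 in the RA term (1 without T14-RA replicate 1 or 3, T7+RA replicate 1 or T14+RA replicate 1). All terms come from one fit to the same libraries.

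Between single groups, 1 of 7 members was called for T7-RA against T0 (Hspb1; all genes 8.78%) and 2 for T14-RA against T7-RA (Hspb3 and Hspb7; all genes 2.95%). With RA, 1 member was called at day 7 (Hspb7; all genes 3.17%) and 2 at day 14 (Hspb7 and Cryab; all genes 4.81%). For T14+RA against T7+RA, edgeR called 0 of 7 (all genes 4.67%), and DESeq2 and limma-voom also called 0, although 4 members had an unadjusted p under 0.05 in edgeR. T7-RA and T14-RA each serve in a time step and in an RA change, so these comparisons share libraries.

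**Figure D2:**
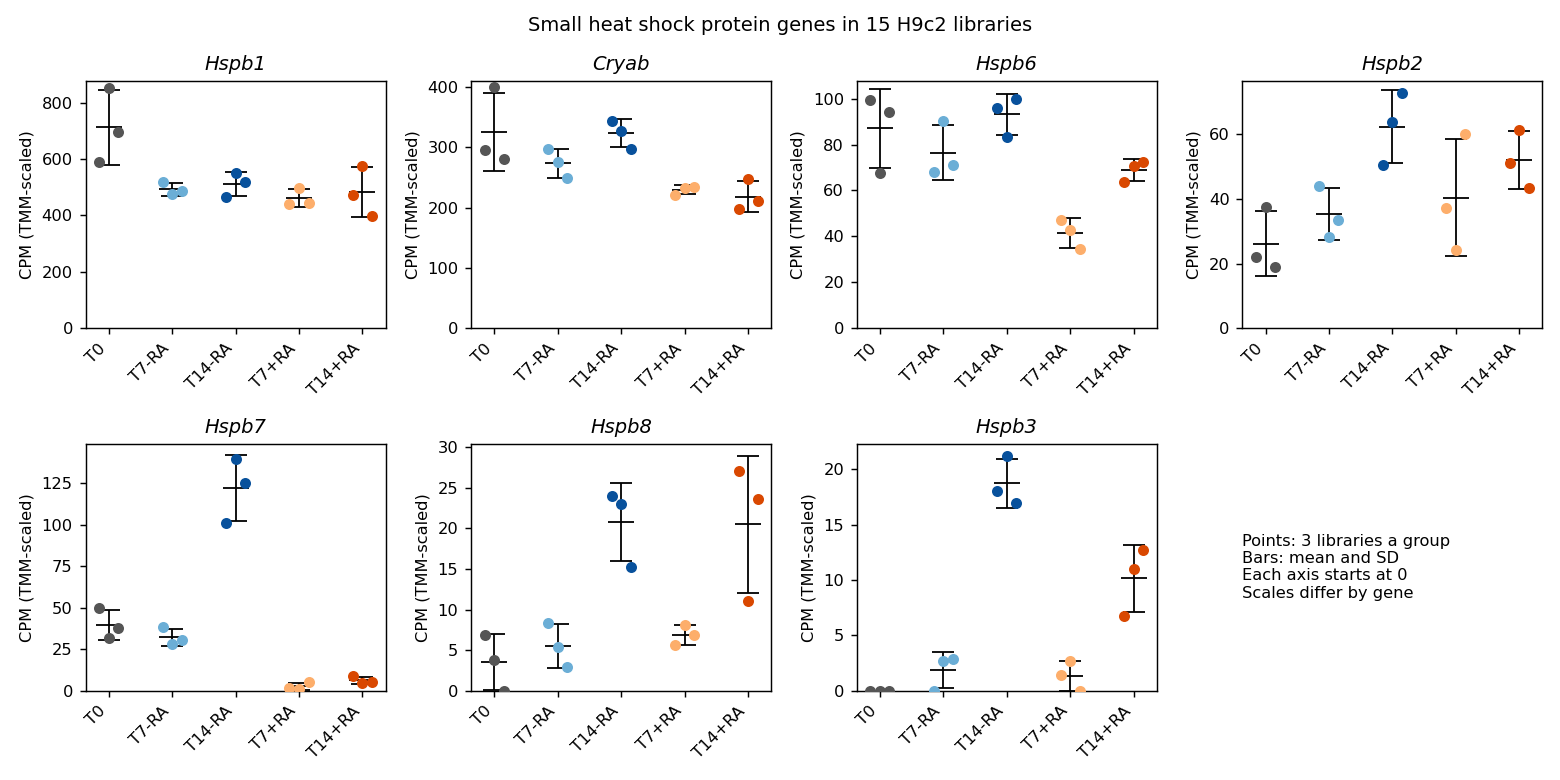
CPM of each member (vertical axes, each from 0) in the 15 libraries, by group; points are libraries and bars the mean with its SD, n = 3. The Hspb7 points of both RA groups lie between 1.34 and 8.68 CPM, below all those of the other groups, while the Hspb8 points of both groups of day 14 overlap.

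Hspb7 (cvHSP, ENSRNOG00000029079, band 5q36), a cardiovascular and skeletal muscle member that binds filamin C and the thin filament, fell with RA to a few counts a library. It was at 49.7, 31.9 and 37.7 CPM at T0, at 38.2, 28.2 and 30.5 at T7-RA, and at 101, 139.9 and 125 at T14-RA. In the RA cultures it was at 1.43, 1.34 and 5.14 CPM at T7+RA and at 8.68, 4.71 and 5.44 at T14+RA. All 6 RA libraries were below all 9 others, and all T14-RA libraries were above the rest. T0 and T7-RA overlapped, as did T7+RA and T14+RA.

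The RA term of Hspb7 was -4.01 on the log2 scale (SE 0.25, edgeR adjusted p = 3.73e-20), a 16.1-fold lower level, place 27 by p and place 14 from the lowest fold change among all genes. At day 7 the change with RA was -3.63 (SE 0.47, adjusted p = 9.75e-09), from 74 counts in 3 libraries to 5, a ratio of 13.2 with a 95% counting interval of 5.42 to 41.9; without T7+RA replicate 3, the highest of its group, it was -4.39 (adjusted p = 6.66e-08). At day 14 it was -4.13 (SE 0.29, adjusted p = 1.8e-18), from 237 counts to 15, a ratio of 17.7 (10.5 to 32.1). Without RA, Hspb7 rose 3.69-fold from T7-RA to T14-RA (log2 1.89, SE 0.22, adjusted p = 3.9e-10). From T7+RA to T14+RA the estimate was 1.38 (SE 0.66, adjusted p = 0.195), not called, with 5 and 15 counts behind it, and without T7+RA replicate 3 it was 2.14 (adjusted p = 0.106). From T0 to T7-RA it was -0.32 (SE 0.26, adjusted p = 0.421). The T14 term of the additive model, 1.55 (SE 0.22, adjusted p = 4.24e-08), is relative to T0 with RA held constant, whereas the T14+RA libraries themselves lay below those of T0. These 5 calls of Hspb7 held when any 1 of the 15 libraries was left out.

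Hspb6 (HSP20, ENSRNOG00000020922, band 1q21), a target of protein kinase A known from smooth muscle relaxation and the heart, fell with RA in the additive model. It was at 99.3, 67.5 and 94.3 CPM at T0, 68.0, 90.0 and 71.2 at T7-RA, and 96.1, 83.2 and 99.9 at T14-RA. With RA it was at 47.0, 43.0 and 34.3 CPM at T7+RA and at 63.7, 70.7 and 72.5 at T14+RA. The T7+RA libraries were below all others, and the T14+RA libraries overlapped T7-RA and T0. The RA term was -0.63 (SE 0.14, edgeR adjusted p = 0.000488). At day 7 alone the change was -0.86 (SE 0.21, adjusted p = 0.00235) and at day 14 -0.45 (SE 0.18, adjusted p = 0.111), neither called. Its T14 term was 0.17 (SE 0.18, adjusted p = 0.482). The call of the RA term was lost with DESeq2 (adjusted p = 0.00172), with limma-voom (0.00104), and without any of 8 libraries: T7-RA replicates 2 and 3, T14-RA replicates 1 and 3, T7+RA replicates 1, 2 and 3, and T14+RA replicate 1 (log2 -0.64 to -0.56, adjusted p 0.00118 to 0.00359). Hspb6 overlaps Lin37 (196 counts) in RefSeq; the library kit marks strand, but the strand setting of the counting is not given in the sources used here, so part of the reads may belong to Lin37.

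Cryab (ENSRNOG00000010524, band 8q23), the chaperone of desmin and titin, also fell with RA, by less than Hspb7. It was at 295, 399.6 and 281 CPM at T0, 297, 275 and 248 at T7-RA, and 344, 328 and 298 at T14-RA. With RA it was at 221, 232 and 235 CPM at T7+RA and at 198, 247 and 210.3 at T14+RA. All 6 RA libraries were below all 9 others, and the 2 RA groups overlapped each other. The RA term was -0.42 (SE 0.09, edgeR adjusted p = 0.000583), a 1.34-fold lower level. At day 14 the change was -0.58 (SE 0.12, adjusted p = 0.000383), and at day 7 it was -0.26 (SE 0.12, adjusted p = 0.258). Its T14 term was -0.08 (SE 0.12, adjusted p = 0.664), and 0.03 when libraries were scaled by size only. DESeq2 did not call the RA term (adjusted p = 0.00151) or the change at day 14 (0.00165), and limma-voom did not call the RA term (0.00126). The RA term was also lost without any of T7-RA replicate 1, T14-RA replicates 1, 2 and 3, T7+RA replicate 1 and T14+RA replicates 1 and 3 (log2 -0.42 to -0.36, adjusted p 0.00139 to 0.00718). The day 14 call was lost without T14-RA replicates 1 or 2 or T14+RA replicates 1 or 3 (log2 -0.57 to -0.50, adjusted p 0.00197 to 0.0164). Cryab and Hspb2 are neighbours whose RefSeq spans overlap, so that some reads of one could be counted to the other, which was not tested. Over the libraries their log2 CPM had a Pearson r of 0.01, a value that does not measure shared reads.

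Across the RA groups, the change of each member at day 14 was not shown to differ from that at day 7: edgeR called 0 of 7 differences at an adjusted p under 0.05 (all genes 0.743%), 0 had an unadjusted p under 0.05, and DESeq2 and limma-voom called 0. For Hspb7 the difference was -0.51 with a 95% interval of -2.39 to 1.38 on the log2 scale, and without T7+RA replicate 3 it was 0.25 (adjusted p = 0.974). For Cryab it was -0.32 (-0.67 to 0.03) and for Hspb6 0.41 (-0.14 to 0.97).

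**Figure D3:**
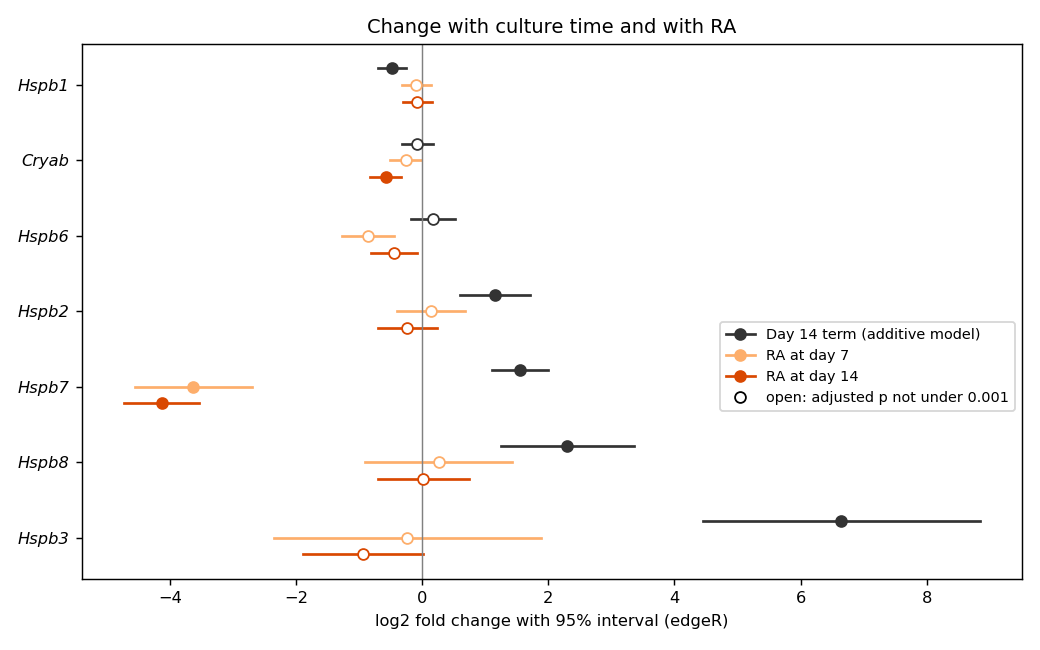
Log2 fold change (horizontal axis) of each member with its 95% interval, for the T14 term of the additive model and for RA at day 7 and at day 14; filled points have an edgeR adjusted p under 0.001. Hspb7 is at -3.63 and -4.13 with RA, and the widest intervals are those of Hspb3.

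Hspb3 (ENSRNOG00000010992, band 2q14), the partner of Hspb2 in a complex formed during myoblast differentiation, was at 0 to 2 counts a library up to day 7 and rose by day 14. It had 0 counts in the 3 T0 libraries, 0, 2 and 2 at T7-RA, and 15, 12 and 10 at T14-RA. With RA it had 1, 2 and 0 counts at T7+RA and 7 in each of the T14+RA libraries. In CPM the T14-RA libraries (16.9 to 21.3) were above those of T14+RA (6.75 to 12.7), and both were above every earlier library. Against T0, with a floor of 3 counts over the group, Hspb3 was at least 10.8-fold higher at T14-RA and at least 5.46-fold higher at T14+RA; the 95% counting limits against 0 counts, which include the error of the higher group, were lower, at 8.33 and 4.06. From T7-RA to T14-RA it rose, with a ratio of 10.6 (95% counting interval 3.80 to 40.8; log2 3.27, SE 0.65, edgeR adjusted p = 0.000196). This call was lost with DESeq2 (adjusted p = 0.00647) and without T7-RA replicate 1 or 2 or T14-RA replicate 1 or 2 (log2 2.66 to 3.65, adjusted p 0.0013 to 0.00773). The T14 term was called (edgeR adjusted p = 1.63e-06), with and without each library. Its fitted size depends on the zeros of T0 and is no estimate of the fold. The counts of T0, T7-RA and T7+RA (0, 4 and 3) would not together have passed the authors' limit of over 20 in total. Hspb3 was thus in the table only through its day 14 counts (37 at T14-RA and 21 at T14+RA). Its calls for a rise by day 14 were made on a gene kept through those counts, and the part of this selection was not tested. The RA change at day 14 was -0.94 (SE 0.48, adjusted p = 0.239), so the lower level with RA did not pass the test although the libraries did not overlap.

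Hspb8 (HSP22, ENSRNOG00000022392, band 12q16), the client-binding partner of Bag3, rose by day 14, to close levels with and without RA. It had 5, 2 and 0 counts at T0, 7, 4 and 2 at T7-RA, and 20, 13 and 9 at T14-RA. With RA it had 4, 6 and 4 counts at T7+RA and 28, 7 and 13 at T14+RA. In CPM the 6 libraries of day 14 (11.0 to 27.0) were above the 9 others (0 to 8.35). Its T14 term was 2.30 (SE 0.52, edgeR adjusted p = 0.000337), and 42 against 7 counts at T14-RA and T0 gave a ratio of 5.24 (95% counting interval 2.33 to 13.8). The steps from day 7 were not called, at 1.85 (SE 0.47, adjusted p = 0.00474) without RA and 1.60 (SE 0.45, adjusted p = 0.0107) with RA. The RA change at day 14 was 0.01 with an interval of -0.71 to 0.74 (adjusted p = 0.991), an interval that spans changes in both directions. The T14 call was lost with DESeq2 (adjusted p = 0.00312), with limma-voom (0.00261), and without T0 replicate 2 or 3 or T14-RA replicate 1 or 2 (log2 1.86 to 2.28, adjusted p 0.00125 to 0.00389). Without T0 replicate 1, which held 5 of the 7 counts of T0, the term was 3.27 (adjusted p = 0.000334).

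Hspb2 (ENSRNOG00000010402, band 8q23) also rose by day 14. It was at 22.1, 37.5 and 18.9 CPM at T0, 44.1, 28.2 and 33.4 at T7-RA, and 50.4, 63.8 and 72.8 at T14-RA. With RA it was at 37.1, 24.2 and 59.99 CPM at T7+RA and at 51.1, 61.3 and 43.5 at T14+RA. Each group overlapped the next in order of the mean, while all 6 libraries of day 14 were above the 3 of T0. The T14 term was 1.15 (SE 0.28, edgeR adjusted p = 0.000609), a 2.22-fold higher level, and the RA term was -0.07 (95% interval -0.43 to 0.29, adjusted p = 0.874). The T14 call was lost with DESeq2 (adjusted p = 0.00219), with limma-voom (0.00171), and without T0 replicate 1 or 3, T7-RA replicate 1, or T14-RA replicate 2 or 3 (log2 1.02 to 1.13, adjusted p 0.00111 to 0.0111). The overlap with Cryab applies here too: Hspb2 had 442 counts in all and Cryab 2776, and shared reads were not tested.

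Hspb1 (HSP27, ENSRNOG00000023546, band 12q12), which binds actin and is phosphorylated by the p38-activated kinase Mapkapk2, was the 1 member called lower in the T7 and T14 terms. It was at 589, 854 and 696 CPM at T0, 519, 476 and 485 at T7-RA, and 464, 551 and 519.9 at T14-RA. With RA it was at 439, 498 and 446 CPM at T7+RA and at 473, 575 and 399 at T14+RA. T0 lay above all other libraries, and the 4 later groups overlapped one another. The T7 term was -0.53 (SE 0.11, edgeR adjusted p = 0.000221), the T14 term -0.47 (SE 0.11, adjusted p = 0.000557), and the contrast of T7-RA with T0 -0.52 (SE 0.11, adjusted p = 0.000305). From T7-RA to T14-RA the difference was 0.05 (95% interval -0.18 to 0.28), and the RA term was -0.09 (-0.26 to 0.08).

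The T0 level of Hspb1 rested in part on T0 replicate 2, which was also the highest T0 library for Cryab and Hspb2. Without it the terms were -0.37 at T7 (edgeR adjusted p = 0.0132) and -0.31 at T14 (adjusted p = 0.0316), and T7-RA against T0 was -0.36 (adjusted p = 0.0106). The T7 term was also lost without T7-RA replicate 2 or 3 (adjusted p 0.00107 and 0.00145), and the T14 term without T0 replicate 3, T14-RA replicate 1 or 3, or T7+RA replicate 2 (log2 -0.48 to -0.42, adjusted p 0.0011 to 0.00509). T7-RA against T0 was lost without T0 replicate 3 or any T7-RA replicate (log2 -0.56 to -0.50, adjusted p 0.00131 to 0.00372). With scaling by library size only, which moved the median of all genes to 0.13 in the T7 term and 0.15 in the T14 term, Hspb1 was at -0.42 (adjusted p = 0.00329) and -0.37 (adjusted p = 0.00761), and T7-RA against T0 at -0.42 (adjusted p = 0.005). DESeq2 and limma-voom kept the T7 call but not the T14 call (adjusted p = 0.00161 and 0.00135) or T7-RA against T0 (0.00101 and 0.00116). With at least 10 counts in every library, the T14 term (-0.42, adjusted p = 0.0026) and T7-RA against T0 (-0.48, adjusted p = 0.00114) were not called either.

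The genes with a pattern most like each member were found by Pearson's r of log2 CPM over the 15 libraries, as a description: the libraries share their groups, and genes with a mean under 10 counts were not considered. For Hspb7 these were Adamts1 (r = 0.963), Mrvi1 (r = 0.960) and AABR07068316.1 (r = 0.948). For Hspb3 they were Hjv (r = 0.978) and the muscle genes Ckmt2 (r = 0.949), a mitochondrial creatine kinase, and Myl1 (r = 0.939), a myosin light chain. Hspb8 was nearest to Cap2 (r = 0.928), an actin regulator of striated muscle, Des (r = 0.916), the muscle intermediate filament desmin, and Tbce (r = 0.912). Cryab was nearest to Prrx2 (r = 0.926), Myl12a (r = 0.917) and Prmt7 (r = 0.906), and Hspb6 to Als2cl (r = 0.891), Rhobtb1 (r = 0.872) and AABR07044375.1 (r = 0.855). Hspb1 was nearest to Rhog (r = 0.911), Pfn1 (r = 0.903), the actin-binding profilin, and Cnot3 (r = 0.902). Hspb2 was nearest to Atp5mf (r = 0.878), Gsta1 (r = 0.849) and Naca (r = 0.849). Among the members, the highest r were those of Hspb6 with Hspb7 (0.78), Hspb3 with Hspb8 (0.78) and Hspb7 with Cryab (0.76).

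**Figure D4:**
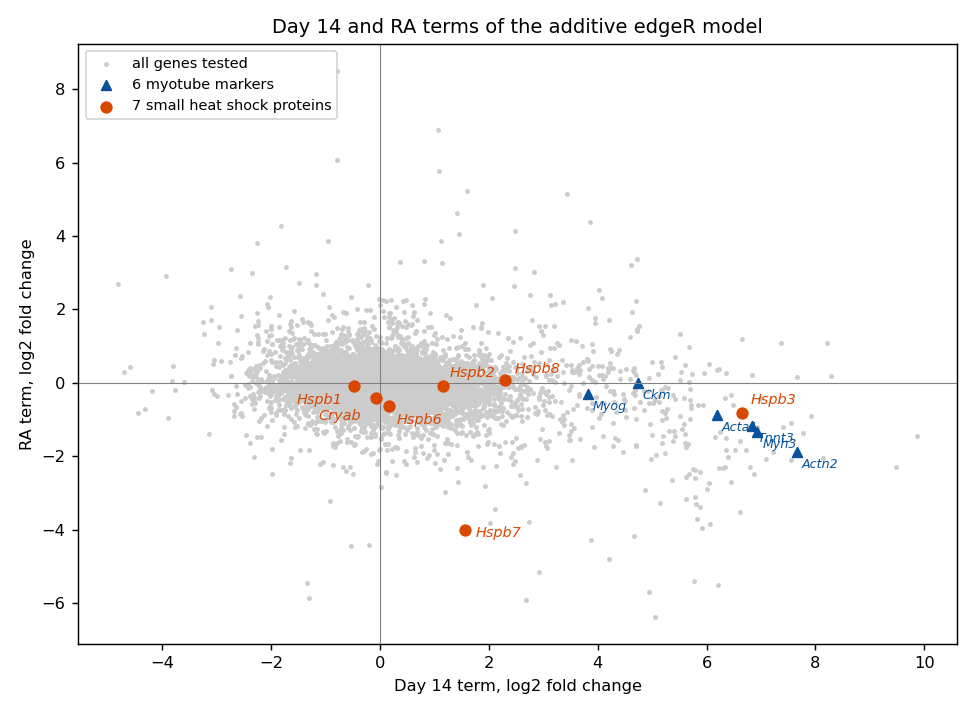
Log2 fold change in the T14 term (horizontal axis) and in the RA term (vertical axis) of the additive model, for all genes with a symbol (grey), 6 myotube markers (triangles) and the 7 members (circles). Hspb7 is at 1.55 and -4.01, the lowest member on the vertical axis. Hspb3 is at 6.64 and -0.83, where the T14 value depends on the zeros of T0 and is no estimate of the fold. Both terms come from the same libraries.

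The counts of the other gene lists stand beside the shares of all genes, 8.47% higher and 8.85% lower in the T14 term and 6.39% called in the RA term. Of 13 measured heat-inducible chaperones of 15 listed, 0 rose and 4 fell in the T14 term (median log2 -0.36), and 0 were called for RA. Dnajb1, a co-chaperone of HSP70, fell by 1.14 (SE 0.15), and Serpinh1, the collagen chaperone, fell by 0.98 (SE 0.10). Of the 7 regulators measured of 11 listed, 1 fell in the T14 term, Mapkapk2 (-0.49, SE 0.12, edgeR adjusted p = 0.000653), the kinase of Hspb1. The heat shock factors were not called, with T14 terms of -0.49 for Hsf1 (adjusted p = 0.0405), 0.69 for Hsf2 (adjusted p = 0.00808) and 0.06 for Hsf4 (adjusted p = 0.943). No regulator was called for RA.

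Among partners of the family, 2 of 11 genes of the BAG and chaperone-assisted autophagy list (12 listed) rose in the T14 term, Lamp2 (0.93, SE 0.13), the lysosomal membrane protein, and Synpo2 (0.88, SE 0.21), a Z-disc protein that links Bag3 to autophagy; 0 of the list fell, and the shares of all genes were 8.47% higher and 17.3% in either direction. Bag3 itself was at -0.18 (SE 0.14, edgeR adjusted p = 0.358) in the T14 term and -0.14 (SE 0.11, adjusted p = 0.482) in the RA term. For RA, 1 gene of that list rose, Lamp2 (0.44). Of the 10 cytoskeletal binding partners measured of 11 listed, 3 rose in the T14 term, among them Acta1 (6.18, SE 0.16) and Actc1 (6.04, SE 0.33), the striated muscle actins, and Des (2.61, SE 0.40), and 5 fell, the most Flna (-1.70, SE 0.09) and Actg1 (-1.62, SE 0.11), a filamin and an actin of non-muscle cells. With RA 4 of the 10 fell, Actc1 by 2.73, Vim, the intermediate filament vimentin, by 1.01, Acta1 by 0.86 and Flna by 0.50, while Des was at 0.01 (adjusted p = 0.988).

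Of the other chaperone lists, 2 of 11 genes of the chaperonin TRiC and myosin chaperones rose in the T14 term, the myosin chaperones Unc45b (5.23, SE 0.32) and Smyd1 (3.34, SE 0.43), and 1 fell, Unc45a (-0.92, SE 0.19), with 0 called for RA. Of 21 other HSP70, HSP90 and J-domain genes measured of 22 listed, 1 rose, Dnaja2 (0.62, SE 0.13), 1 fell, Cdc37 (-0.68, SE 0.12), and 1 rose with RA, Hspa9 (0.43). Beside both lists, the shares of all genes were 8.47% higher and 8.85% lower in the T14 term and 6.39% called for RA. Of 4 further genes listed by name as other small heat shock proteins, Hspb11 alone was in the table (43 counts), and it was not called in the T14 or RA term. All 6 myotube markers rose in the T14 term, beside Hspb2, Hspb3, Hspb7 and Hspb8. With RA, 4 of the 6 fell, among them Actn2 (-1.89, SE 0.35) and Myh3 (-1.33, SE 0.08). Myog (-0.30, SE 0.08, edgeR adjusted p = 0.00501) and Ckm (0.0009, SE 0.24, adjusted p = 0.999) were not called for RA. The part of these markers in the changes of the small heat shock proteins was not tested.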

How the data were processed

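RNA-seq of 15 H9c2 cultures was analysed. Libraries were made with a stranded mRNA kit, and per the labels the authors used HISAT2 and featureCounts with the build Rnor_6.0. The deposited table holds unnormalised gene counts, limited by the authors to genes with over 20 in total; its smallest sum was 21. Groups came from the sample titles. The cell line field of the labels increments from H9c2 upward; the titles were used. Chi-square per gene between replicates was 1.07 to 3.09, so that replicates varied beyond counting. Counts were fitted with edgeR 4.0.16 (TMM, robust quasi-likelihood) in R 4.3.3, in scripts tested on simulated data, with all 15 libraries in each fit and Benjamini-Hochberg adjustment within each comparison. Alternatives used DESeq2 1.42.0, limma-voom (limma 3.58.1), other scaling and filters, a replicate block, an adjusted p of 0.05, and each library left out. Counting intervals and floors pool the 3 libraries of a group and leave out the spread between replicates. No molecular identifiers were used, so they do not allow for repeated reads of one molecule either. Members, gene lists and markers were chosen with earlier results of these data known. All members were named; from each list, the 2 largest rises and 2 largest falls among the called genes of the T14 term, with the heat shock factors, Bag3 and Des; and the 3 genes most correlated with each member. Genes named for RA from the lists, and markers with values, were chosen after their values were seen.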

Additional observations from a re-analysis of the deposited data

Results flagged for a closer look

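One of the 96 listed genes, members and markers included, had an RA change at day 14 that differed from that at day 7 by the test of the difference, close to the share of all genes called there (0.743%). This was Myod1, the myogenic transcription factor used here as a myoblast marker. Its RA change was 0.77 on the log2 scale at day 7 (edgeR adjusted p = 0.00106) and -0.28 at day 14 (adjusted p = 0.489), a difference of -1.04 (SE 0.27, adjusted p = 0.0369). None of the 7 small heat shock protein genes met this test.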

How the results depend on the processing

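The calls of Hspb7 in the T14 and RA terms, for T14-RA against T7-RA and for RA at each day held under every alternative that could fit it; with at least 10 counts in every library only Hspb1, Hspb6 and Cryab were left. No called member changed direction: of its values under the alternatives, 272 stayed called and 64 did not. Uncalled members stayed uncalled in the same direction in 1038 values, 31 turned and 6 passed the threshold. With library size only, 0 members were called in the T7 term and for T7-RA against T0. With at least 10 counts in every library, 0 were called in the T14 term, for T7-RA against T0, for T14-RA against T7-RA and for RA at day 7, and 1 for RA at day 14. DESeq2 called 2 in the T14 term, 1 in the RA term, 0 for T7-RA against T0, 1 for T14-RA against T7-RA and 1 for RA at day 14. Limma-voom called 2 in the T14 term, 1 in the RA term and 0 for T7-RA against T0. At an adjusted p of 0.05, 4 were called for T14-RA against T7-RA, 3 for T14+RA against T7+RA and 2 for RA at day 7. More of all genes pass at that threshold too. In the T7, T14 and RA terms, 2679, 4102 and 1701 of 11574 genes were called at 0.05, against 1010, 2004 and 740 at 0.001. For the contrasts between groups the share at 0.05 is not given here. The causes of the changed calls were not tested, except that a filter leaves fewer genes. Leaving out 1 library gave 0 to 1 called in the T7 term, 2 to 5 in the T14 term, 1 to 3 in the RA term, 0 to 1 for T7-RA against T0, 1 to 2 for T14-RA against T7-RA, 0 for T14+RA against T7+RA, 1 for RA at day 7, 1 to 2 for RA at day 14 and 0 for the difference. Values that turned were the T14 term of Cryab (0.026 with library size only), RA at day 7 of Hspb3 (0.038 with limma-voom), and RA at day 14 of Hspb8 (-0.00253 with library size only, -0.00463 with DESeq2, -0.041 with limma-voom). Without 1 library, ranges that crossed 0 were -0.25 to 0.00722 (T7 term, Cryab), -0.15 to 0.10 (T14 term, Cryab), -0.23 to 0.023 (RA term, Hspb2), -0.093 to 0.29 (RA term, Hspb8), -0.012 to 0.12 (T14-RA against T7-RA, Hspb1), -0.075 to 0.16 (T14+RA against T7+RA, Hspb1), -0.22 to 0.42 and -1.02 to 0.21 (RA at day 7, Hspb2 and Hspb3), -0.21 to 0.03 and -0.31 to 0.29 (RA at day 14, Hspb1 and Hspb8), and -0.12 to 0.12, -1.15 to 0.082, -0.91 to 0.25 and -0.68 to 0.013 (difference, Hspb1, Hspb3, Hspb7 and Hspb8). With the replicate number as a block the number of members called was that of the fit without it in all 9 comparisons (1 in the T7 term, 5 in the T14 term, 3 in the RA term, 1 for T7-RA against T0, 2 for T14-RA against T7-RA, 1 and 2 for RA at day 7 and day 14, 0 for the others), and RA at day 14 of Hspb8 was -0.010. The main fits did not take the numbers to pair the libraries, since not every same-numbered pair had an r over 0.1. A weak pairing would also fail that rule, so whether the numbers pair the libraries was not settled. Deviations of same-numbered libraries had a mean r of 0.0321 over 30 pairs, 5 of them over 0.1. For 60 pairs of different numbers the mean was -0.016, 0 of them over 0.1. Of 15 libraries, 8 correlated best with their own number. Few counts limit Hspb3, Hspb8 and, with RA, Hspb7.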
